A study of Mus musculus with 6 samples.

Results

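The 10 genes described here, *S100a8*, *S100a9*, *Csf3r*, *Mmp8*, *Mmp9*, *Ngp*, *Camp*, *Ltf*, *Lcn2* and *Retnlg*, encode granule, alarmin and surface proteins that are best known from neutrophils. They were given as a list of gene symbols and looked up among the 54532 genes of the deposited read counts, where each symbol named 1 gene. The counts come from 6 lungs, 3 of GRdim/dim mice and 3 of GR+/+ littermates on a mixed 129/SvEv x C57BL/6 background, all 10 to 16 weeks old. GRdim/dim mice carry in every cell a point mutation that impairs dimerization of the glucocorticoid receptor (GR), whereas GR+/+ mice carry the unchanged receptor. All 6 mice had been anesthetized, ventilated and kept in hemorrhagic shock (HS) for 1 h, were then given back their shed blood, and were resuscitated for 4 h with colloids and norepinephrine, so that no lung without HS enters any comparison. One mouse was treated per day, and day and mouse therefore cannot be told apart. Of the GR+/+ mice 2 were female and 1 was male, and of the GRdim/dim mice 1 was female and 2 were male, while the labels do not tie a sex to a library. The question here is whether the neutrophil genes differed between lungs with impaired and with intact GR signaling after HS.

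Neutrophils make their granule proteins in the bone marrow in a fixed order. Proteins of the primary granules are transcribed in the earliest precursors, those of the specific granules, such as NGP, cathelicidin and lactoferrin, in the next stages, and those of the gelatinase granules, such as MMP9, late in maturation. The alarmins S100A8 and S100A9 fill the cytosol, and their transcripts persist in the mature cell, whereas transcripts of most specific granule proteins fade before the cell enters the blood. In the lung, neutrophils collect in the capillaries after shock. Glucocorticoids are known to release neutrophils from the marrow and the vessel wall into the blood and to lengthen their life. In RNA from a piece of whole lung, a change in the number of neutrophils and a change in the RNA per neutrophil cannot be told apart.

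Total counts were 16361747 to 32082940 per library. Lung markers were abundant in all 6 libraries, with summed levels of 15700 to 25080 CPM (counts scaled to a common library total with TMM factors) for 7 alveolar epithelial genes. Because the GR mutation leaves the transcript in place, gene counts cannot check the genotype of a library. Between 6139 and 22972 counts per library fell on the 10 genes. Their summed level was 581, 368 and 332 CPM in GR+/+ replicates 1, 2 and 3, and 1239, 455 and 563 CPM in GRdim/dim replicates 1, 2 and 3. GRdim/dim replicate 1 stood far above the other 5 libraries, and the 2 remaining GRdim/dim lungs lay within the GR+/+ range. GRdim/dim replicate 1 had the highest level of 8 of the 10 genes, the exceptions being *Ltf*, highest in GR+/+ replicate 1, and *Camp*, highest in GRdim/dim replicate 2. Values without this library are given below for the genes and lists that it moved most.

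**Figure D1:**
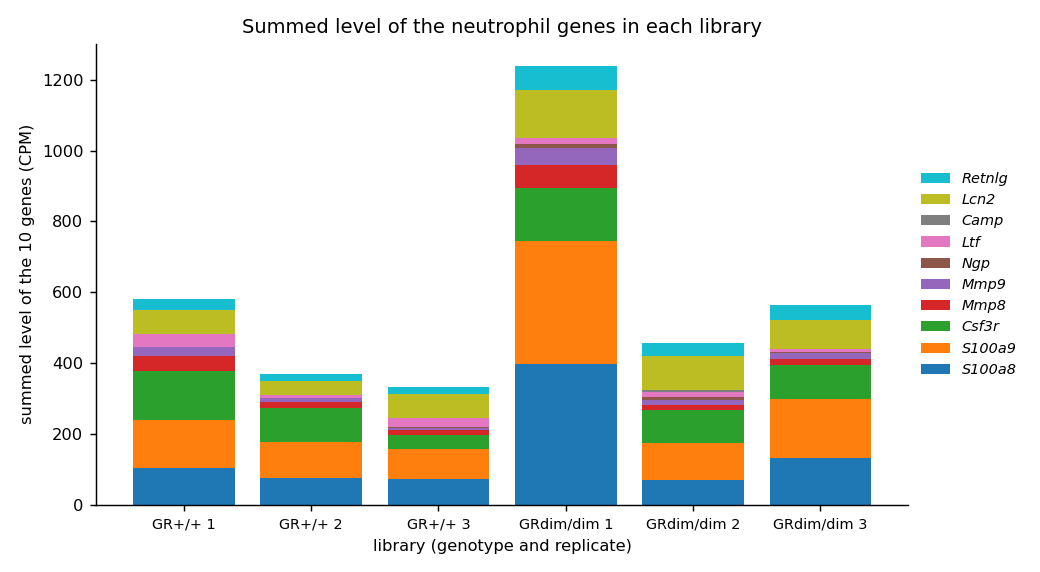
Summed level of the 10 genes in each library, in CPM on a linear axis from 0, with 1 stacked bar per lung and 1 colour per gene. GRdim/dim replicate 1 reaches 1239 CPM, against 332 to 581 CPM in the other 5 lungs, and *S100a8* and *S100a9* take up more than any other gene of its bar.

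Differentially expressed genes (DEGs) were those with an adjusted *p*-value under 0.05 from edgeR's quasi-likelihood test and a log2 fold change (log2FC, GRdim/dim over GR+/+, given ± its standard error, SE) beyond 0.5 in either direction. By this rule none of the 10 genes was a DEG, where 0.169% of the 16568 genes tested were. *Camp*, with too few reads, was not among the genes tested. Of the 9 that were, 8 had a log2FC above 0 and only *Ltf* one below 0, with a median of 0.85 against 0.01 over all genes tested. At an unadjusted *p* under 0.05, 4 of the 9 (*S100a9*, *Ngp*, *Lcn2* and *Retnlg*) were higher in GRdim/dim lungs and 0 were lower, where 4.91% of all genes tested were higher and 4.68% were lower. Without GRdim/dim replicate 1, 7 of the 9 had a log2FC above 0, the median was 0.28 and 3 were higher at that *p*. Without each of the other 5 libraries the median was 0.76 to 1.18 and 3 to 5 were higher, and without GR+/+ replicate 2 *Ltf* was lower at that *p*. With DESeq2, the tool named in the submitters' processing notes, *Ngp*, *Camp* and *Retnlg* were DEGs with higher expression, where 0.817% of 16150 genes were. Without a filter on low counts, edgeR called 5 of the 10 higher (*S100a9*, *Ngp*, *Camp*, *Lcn2* and *Retnlg*), where 0.813% of 31368 genes were. The genes called by DESeq2 also stand on the study's own list of DEGs, which was drawn from the same 6 libraries, so that the list is no independent evidence. In 4 of the 10 genes, *Ngp*, *Camp*, *Lcn2* and *Retnlg*, every GRdim/dim library lay above every GR+/+ library, and 3 of these 4 were among the genes tested, of which 7.77% showed that order. An exact permutation test of 3 lungs against 3 cannot give a two-sided *p* below 0.1, the value these 4 genes reached, and for the other 6 genes it gave 0.2 to 0.6.

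**Figure D2:**
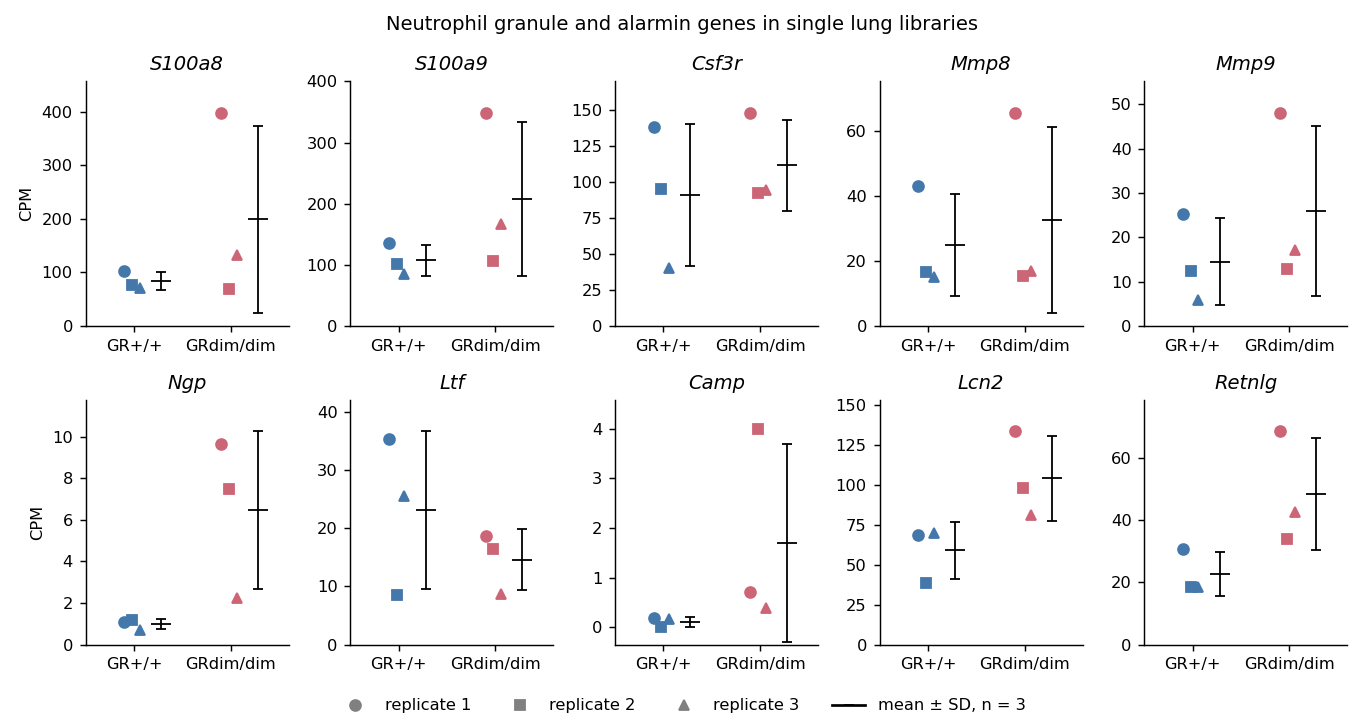
Level of each of the 10 genes in CPM (linear axes of different range), with 1 point per lung, the point shape giving the replicate number, and the mean ± SD of the 3 lungs of a genotype beside them in black. The genotypes do not overlap for *Ngp*, *Camp*, *Lcn2* and *Retnlg*, and GRdim/dim replicate 1 (circle) is the highest of the 6 points in 8 of the 10 panels.

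The specific granule gene with the largest fold change among the genes tested was *Ngp* (ENSMUSG00000032484, chr9:110419747-110423012 of GRCm38, plus strand), which encodes neutrophilic granule protein, a cathelicidin relative that marks neutrophil precursors. It was counted 18, 20 and 22 times in GR+/+ replicates 1, 2 and 3, and 179, 180 and 35 times in GRdim/dim replicates 1, 2 and 3. In CPM this was 1.08, 1.20 and 0.699 against 9.65, 7.48 and 2.26. All 3 GRdim/dim lungs were above all GR+/+ lungs, with GRdim/dim replicates 1 and 2 far above and replicate 3 nearer to the GR+/+ range. The means were 6.46 ± 3.80 and 0.991 ± 0.261 CPM (SD, n = 3 each, as for all levels given with ± below). The log2FC was 2.73 ± 0.53 (SE) with an adjusted *p* of 0.0965 in edgeR and of 2.24e-05 in DESeq2. DESeq2 called *Ngp* a DEG without any one of the 6 libraries, and edgeR did so only without GRdim/dim replicate 3 (log2FC 3.13, adjusted *p* = 0.0396 from edgeR).

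*Camp* (ENSMUSG00000038357, chr9:109847379-109849617, minus strand) encodes the cathelicidin antimicrobial peptide of the same granules. It was counted 3, 0 and 5 times in GR+/+ replicates 1, 2 and 3, where the count of 0 allows up to 3 counts, and 13, 96 and 6 times in GRdim/dim replicates 1, 2 and 3. In CPM this was 0.179, 0 and 0.159 against 0.701, 3.99 and 0.388. GRdim/dim replicate 2 thus held most of the *Camp* counts of all 6 lungs. GRdim/dim replicate 3 was the nearest to the GR+/+ lungs, from a count of 6. The mean was 1.69 ± 1.99 CPM in GRdim/dim lungs against 0.113 ± 0.0981 CPM in GR+/+ lungs, and 0.544 CPM in GRdim/dim lungs without replicate 2, so that the ratio of the means went from 15.0 to 4.83. DESeq2 gave a log2FC of 3.87 ± 1.0 (SE, adjusted *p* = 0.0121). The call ended without GR+/+ replicate 2 (adjusted *p* = 0.0928 from DESeq2), without GR+/+ replicate 3 (0.0649) and without GRdim/dim replicate 2, where DESeq2 gave a log2FC of 2.23 and no adjusted *p*. *Slc4a1*, the band 3 anion exchanger of red cell precursors, was at 0.598, 0.120 and 8.86 CPM in GR+/+ replicates 1, 2 and 3, and at 0.485, 28.8 and 1.74 CPM in GRdim/dim replicates 1, 2 and 3. It was thus also highest in GRdim/dim replicate 2, and next highest in GR+/+ replicate 3. Of the 7 erythroid genes measured, *Hbb-bs* and *Hbb-bt* were highest in GR+/+ replicate 3 (2448 and 209 CPM, against 2020 and 88.6 CPM in GRdim/dim replicate 2). The others were highest in GRdim/dim replicate 2. *Slc4a1* was chosen after its values had been seen, and the part that marrow-like RNA has in the *Camp* counts was not tested.

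*Ltf* (ENSMUSG00000032496, chr9:111019271-111042767, plus strand) encodes lactoferrin, the iron-binding protein of the specific granules, which airway glands also secrete. Its level was 35.3, 8.57 and 25.6 CPM in GR+/+ replicates 1, 2 and 3, and 18.7, 16.5 and 8.72 CPM in GRdim/dim replicates 1, 2 and 3. GR+/+ replicate 2 and GRdim/dim replicate 3 were the lowest, at nearly the same level, and the genotypes overlapped. The log2FC was -0.66 ± 0.46 (SE, edgeR adjusted *p* = 0.720), and it stayed below 0 without any one library (-1.05 to -0.23). *Ltf* is the one gene of the 10 that did not share the sign of the rest. Of 7 airway epithelial genes, 4 were lower and 0 higher at an unadjusted *p* under 0.05, where 4.68% and 4.91% of all genes tested were. DESeq2 called *Scgb3a1* (log2FC -1.08) and *Muc5b* (-1.08) as lower DEGs. The summed level of the list overlapped (14480 to 28590 CPM in GR+/+ and 20450 to 25950 CPM in GRdim/dim lungs). Nearly all of that sum was *Scgb1a1* (13820 to 27510 and 20000 to 25410 CPM, log2FC 0.23), so it says little about the other genes of the list. The part of airway cells in the *Ltf* level was not tested.

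*Lcn2* (ENSMUSG00000026822, chr2:32384633-32388252, minus strand) encodes lipocalin 2, which binds bacterial siderophores and is made by neutrophil precursors and, during inflammation, by epithelium and macrophages. It was at 68.4, 38.6 and 69.8 CPM in GR+/+ replicates 1, 2 and 3, and at 133, 97.8 and 80.9 CPM in GRdim/dim replicates 1, 2 and 3. The lowest GRdim/dim lung lay above the highest GR+/+ lung by less than the spread within either genotype. The means were 104 ± 26.9 and 58.9 ± 17.6 CPM, with a log2FC of 0.82 ± 0.26 (SE, edgeR adjusted *p* = 0.342 and 0.108 from DESeq2). Without any one library, the edgeR value was 0.60 to 0.97.

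*Retnlg* (ENSMUSG00000022651, chr16:48872621-48874496, plus strand) encodes resistin-like gamma, a secreted protein made in marrow and neutrophils. Its level was 30.8, 18.6 and 18.5 CPM in GR+/+ replicates 1, 2 and 3, and 68.6, 34.1 and 42.6 CPM in GRdim/dim replicates 1, 2 and 3. All GRdim/dim lungs were above all GR+/+ lungs, although GR+/+ replicate 1 came close to GRdim/dim replicate 2. The log2FC was 1.10 ± 0.29 (SE, adjusted *p* = 0.253) in edgeR and 1.10 ± 0.30 (SE, adjusted *p* = 0.0225) in DESeq2. DESeq2 called it without GR+/+ replicate 1, GRdim/dim replicate 2 or GRdim/dim replicate 3, and not without GR+/+ replicate 2, GR+/+ replicate 3 or GRdim/dim replicate 1, where the log2FC was 0.76. Of the windows of 31 bases in its transcripts, 5.51% also occur in *Retnla*, a family member at 51.2 ± 33.2 CPM in GR+/+ and 50.6 ± 10.6 CPM in GRdim/dim lungs.

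The alarmin genes *S100a8* (ENSMUSG00000056054, chr3:90668978-90670035, plus strand) and *S100a9* (ENSMUSG00000056071, chr3:90692632-90695721, minus strand) lie 22.6 kb apart with no annotated gene between them, and their products form the calcium-binding complex calprotectin, a ligand of TLR4 and RAGE. *S100a8* was at 103, 76.0 and 71.3 CPM in GR+/+ replicates 1, 2 and 3, and at 397, 69.0 and 132 CPM in GRdim/dim replicates 1, 2 and 3. *S100a9* was at 136, 101 and 85.0 CPM in GR+/+ and at 348, 106 and 167 CPM in GRdim/dim replicates. Both genes were highest in GRdim/dim replicate 1 by a wide margin, next highest in GRdim/dim replicate 3, and in GRdim/dim replicate 2 at the level of the GR+/+ lungs. The log2FC was 1.26 ± 0.57 (SE, edgeR adjusted *p* = 0.543) for *S100a8* and 0.95 ± 0.38 (edgeR adjusted *p* = 0.471) for *S100a9*. DESeq2 gave an adjusted *p* of 0.636 and 0.161, and called both genes higher only without GRdim/dim replicate 2, with a log2FC of 1.66 (adjusted *p* = 0.00152 from DESeq2) for *S100a8* and of 1.26 (adjusted *p* = 0.0106 from DESeq2) for *S100a9*. Without a filter on low counts, edgeR called *S100a9* (adjusted *p* = 0.00332) and not *S100a8* (0.724). Without GRdim/dim replicate 1, the ratio of the genotype means went from 2.39 to 1.21 for *S100a8* and from 1.93 to 1.28 for *S100a9*. Across the 6 libraries the log2 CPM of the 2 genes had a Pearson's r of 0.98, a description over points that share library and scaling.

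*Csf3r* (ENSMUSG00000028859, chr4:126024550-126044440, plus strand) encodes the receptor for granulocyte colony-stimulating factor, the growth factor that drives neutrophil production, and is a surface marker of the mature cell. It was at 139, 95.0 and 40.3 CPM in GR+/+ replicates 1, 2 and 3, and at 148, 92.3 and 94.8 CPM in GRdim/dim replicates 1, 2 and 3. GR+/+ replicate 3 was the lowest of all, the other 5 lungs were intermixed, and the log2FC of 0.29 ± 0.38 (SE, edgeR adjusted *p* = 0.882) turned to -0.06 without GR+/+ replicate 3 and was 0.05 without GRdim/dim replicate 1. Of its windows of 31 bases, 24.4% also occur in a processed pseudogene, and how reads with several matches were counted is not given in the sources used here.

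The metalloproteinase genes *Mmp8* (ENSMUSG00000005800, chr9:7558456-7568485, plus strand), neutrophil collagenase of the specific granules, and *Mmp9* (ENSMUSG00000017737, chr2:164940780-164955850, plus strand), gelatinase B of the gelatinase granules, also followed single libraries. *Mmp8* was at 43.1, 16.8 and 15.0 CPM in GR+/+ replicates 1, 2 and 3, and at 65.7, 15.3 and 17.1 CPM in GRdim/dim replicates 1, 2 and 3. *Mmp9* was at 25.2, 12.5 and 5.97 CPM in GR+/+ and at 48.0, 12.9 and 17.0 CPM in GRdim/dim replicates. Replicate 1 was the highest of its genotype for both genes. The other 4 lungs were intermixed for *Mmp8*, whereas for *Mmp9* GRdim/dim replicates 2 and 3 lay above GR+/+ replicates 2 and 3 but below GR+/+ replicate 1. The log2FC of *Mmp8* was 0.39 ± 0.63 (edgeR adjusted *p* = 0.918), and it was -0.61 without GRdim/dim replicate 1. That of *Mmp9* was 0.85 ± 0.60 (edgeR adjusted *p* = 0.732) and 0.06 without GRdim/dim replicate 1.

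**Figure D3:**
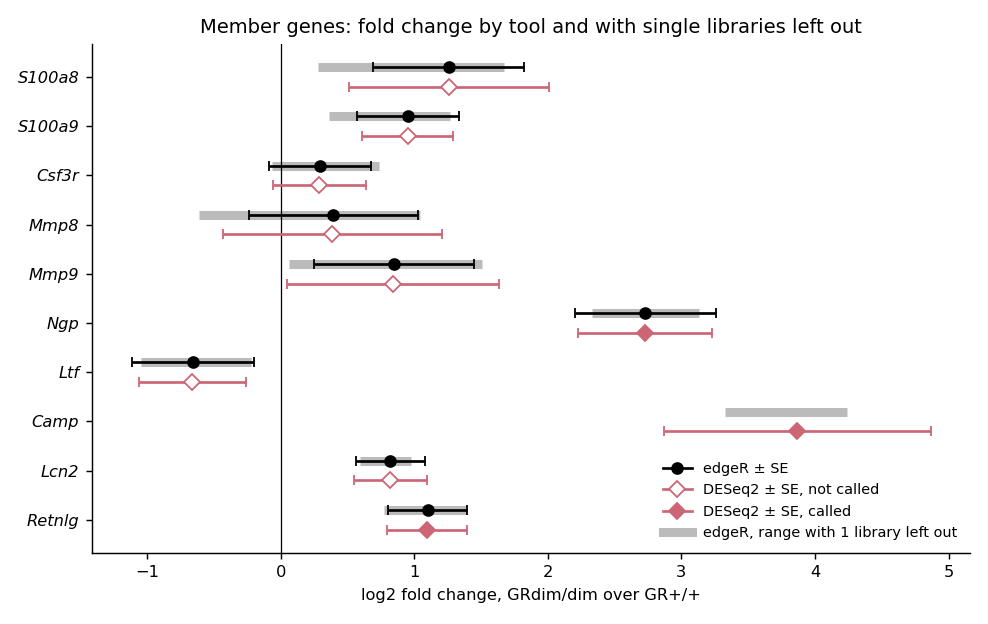
Log2 fold change of each gene, GRdim/dim over GR+/+, from edgeR (black circles, ± standard error) and DESeq2 (red diamonds, ± standard error, filled where the gene was a DEG). Grey bars span the edgeR values with 1 library left out, which for *Camp* exist for 4 of the 6 libraries only. The bars of *Csf3r* and *Mmp8* cross 0, that of *Mmp9* comes down to 0.06, and *Ngp* stays at 2.33 or above.

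The sequences before the RefSeq start sites of the genes were compared, because the granule genes are textbook targets of C/EBP transcription factors and 3 of the 10 genes were DEGs with DESeq2. RefSeq (GRCm38.p6) gave a start site for 9 of the 10 genes, all but *Mmp9*. Within 250 bases before it, the C/EBP motif TTGCNNAA, searched on both strands, was found in 6 of the 9 (*S100a9*, *Mmp8*, *Ngp*, *Ltf*, *Lcn2* and *Retnlg*), against 9.56% of 32851 RefSeq promoters of the same length. The PU.1 motif GAGGAA was found in 5 of the 9 (both strands, 23.3% of all promoters), and TATAAA, on the gene's own strand, in *S100a8* alone, 30 to 25 bases before the start (7.59%). AGAACA, one arm of the glucocorticoid response element, was found in 0 of the 9 on either strand (16.1% of all promoters), which says only that these letters are not in these windows. A match is a description of the sequence and not evidence of binding. The start site lies inside the gene of the deposited coordinates for some genes, by 161 bases for *Camp* and 513 bases for *Lcn2*. The whole window of *Lcn2*, with its C/EBP and PU.1 matches counted above, therefore lies within the deposited gene. The PU.1 match of *Csf3r* and the TATAAA of *S100a8* lie within the deposited gene as well. Bases already within the gene are left out of the sequences printed here. They are those of the 3 genes called with DESeq2 and of *Ltf*, the gene with the opposite sign, from 5′ to 3′ on the strand of the gene, with C/EBP matches in capitals.
Ngp, chr9:110419558-110419746, plus strand: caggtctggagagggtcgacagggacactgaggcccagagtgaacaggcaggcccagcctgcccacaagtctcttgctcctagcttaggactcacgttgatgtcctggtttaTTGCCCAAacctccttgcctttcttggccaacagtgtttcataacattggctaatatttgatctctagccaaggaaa
Camp, chr9:109849618-109849706, minus strand: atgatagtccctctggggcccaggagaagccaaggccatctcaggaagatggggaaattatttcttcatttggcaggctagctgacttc
Ltf, chr9:111019042-111019270, plus strand: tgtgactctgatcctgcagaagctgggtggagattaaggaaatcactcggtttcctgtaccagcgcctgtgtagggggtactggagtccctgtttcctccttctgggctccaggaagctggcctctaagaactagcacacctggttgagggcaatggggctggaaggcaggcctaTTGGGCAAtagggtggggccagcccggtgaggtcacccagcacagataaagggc
Retnlg, chr16:48872358-48872607, plus strand: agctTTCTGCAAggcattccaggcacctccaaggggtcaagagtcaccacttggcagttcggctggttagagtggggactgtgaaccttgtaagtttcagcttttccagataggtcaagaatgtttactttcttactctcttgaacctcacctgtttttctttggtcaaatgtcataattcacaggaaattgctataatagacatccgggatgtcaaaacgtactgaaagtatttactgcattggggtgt
*Ngp* had a second C/EBP match, 11 to 4 bases before its RefSeq start and within the deposited gene, beside the one shown at 138 to 131. The match of *Ltf* lies 75 to 68 bases and that of *Retnlg* 246 to 239 bases before the start, and *Camp* had none. *Camp*, *Ngp* and *Ltf* all lie on chromosome 9, with 570 kb and 22 genes between *Camp* and *Ngp* and 596 kb and 29 genes between *Ngp* and *Ltf*. *Ngp* and *Ltf* both had the motif, and their edgeR log2FC was 2.73 and -0.66. Neither was a DEG with edgeR, and the genotypes overlapped for *Ltf*. The part of motif or position in these values was not tested.

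Ratios of genes within a library, which need no scaling between libraries, were used to compare specific granule with alarmin transcripts. The summed counts of *Ngp*, *Camp* and *Ltf* were 153, 55.3 and 169 per 1000 counts of *S100a8* and *S100a9* in GR+/+ replicates 1, 2 and 3, and 38.9, 160 and 38.0 per 1000 in GRdim/dim replicates 1, 2 and 3. GRdim/dim replicate 2 lay with 2 of the GR+/+ lungs, and the log2 ratio differed by -0.87 between genotypes (two-sided exact permutation test, *p* = 0.3). The difference was -0.21 with *Lcn2* added to the granule genes (exact permutation test, *p* = 0.8) and -0.25 with counts per gene length (*p* = 0.9). *Ltf* made up most of these counts in all 6 lungs, so the genes were also taken singly, a choice made after the values had been seen. *Ngp* alone was at 4.51, 6.78 and 4.47 per 1000 alarmin counts in GR+/+ replicates 1, 2 and 3, and at 12.9, 42.7 and 7.55 per 1000 in GRdim/dim replicates 1, 2 and 3. Every GRdim/dim lung was above every GR+/+ lung, with a difference of 1.64 on the log2 scale (exact permutation test, *p* = 0.1, the smallest possible). *Ltf* alone was at 148, 48.5 and 164 per 1000 in GR+/+ and at 25.0, 94.5 and 29.1 per 1000 in GRdim/dim replicates, a log2 difference of -1.36 with overlapping genotypes (exact permutation test, *p* = 0.2). The sign of the ratio thus depended on which granule gene was counted. The ratio of *S100a8* to *S100a9* differed by 0.10 on the log2 scale (exact permutation test, *p* = 0.8).

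**Figure D4:**
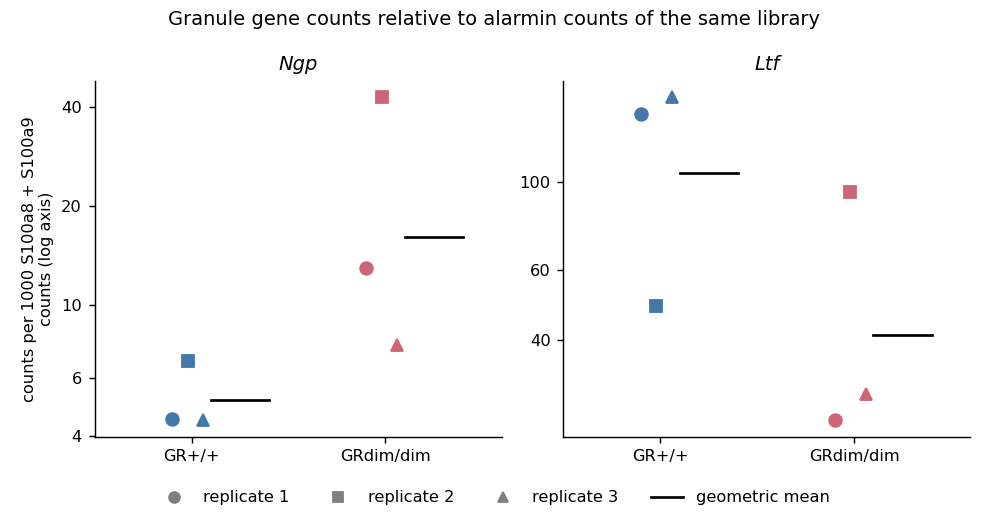
Counts of *Ngp* (left) and *Ltf* (right) per 1000 counts of *S100a8* and *S100a9* in the same library, on log axes, with 1 point per lung and a line at the geometric mean of each genotype. For *Ngp* all GRdim/dim points (7.55 to 42.7) lie above all GR+/+ points (4.47 to 6.78), and for *Ltf* the GRdim/dim points (25.0 to 94.5) overlap the GR+/+ points (48.5 to 164).

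Levels of different genes were compared per kilobase of gene length. In GR+/+ lungs *S100a9* was the highest with 205 ± 49.8 CPM per kilobase (SD, n = 3), followed by *S100a8* with 120 ± 24.5, and these 2 genes did not overlap with each other or with *Retnlg*, which came next with 38.2 ± 11.9. *Retnlg*, *Csf3r*, *Lcn2*, *Mmp8*, *Ltf* and *Mmp9* followed in this order, from 38.2 down to 4.11 CPM per kilobase, and each overlapped with the next. *Ngp* with 0.811 ± 0.213 and *Camp* with 0.149 ± 0.130 CPM per kilobase were the lowest, without overlap. In GRdim/dim lungs *S100a9* (397 ± 241 CPM per kilobase), *S100a8* (287 ± 251) and *Retnlg* (81.7 ± 30.3) led again, *Lcn2* stood above *Csf3r*, and *Ngp* (5.29 ± 3.11) above *Ltf* (4.24 ± 1.52). In this order all neighbours overlapped except *Retnlg* and *Lcn2*. The precursor genes *Ngp* and *Camp* thus remained far below the alarmins of mature cells in both genotypes.

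The genes whose level followed the 10 genes most closely were looked up among 15326 other genes with a mean of at least 1 CPM, as a description over 6 libraries that share depth and scaling. The pattern followed was the mean standardised log2 CPM of the 9 genes tested, which was 0.28, -0.74 and -0.81 in GR+/+ and 1.36, -0.06 and -0.03 in GRdim/dim replicates 1, 2 and 3. The 8 closest genes were *Gm10226*, *C5ar1*, *Il1r2*, *Zcchc2*, *Bmp2k*, *Tpd52*, *Xpo1* and *Stambp*, with Pearson's r from 0.98 to 0.99. None of them was a DEG with edgeR. *C5ar1*, the receptor for the complement fragment C5a on neutrophils and other myeloid cells, was at 16.7, 9.65 and 9.09 CPM in GR+/+ and at 25.1, 13.2 and 12.1 CPM in GRdim/dim replicates 1, 2 and 3. *Il1r2*, the decoy receptor for interleukin-1, was at 11.7, 5.46 and 5.91 CPM in GR+/+ and at 21.5, 7.77 and 9.82 CPM in GRdim/dim replicates. Both were highest in GRdim/dim replicate 1 and next highest in GR+/+ replicate 1, the order seen for *Mmp8*, *Mmp9* and *Csf3r*.

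Other genes of neutrophils and their partners were taken from 9 lists with 106 genes, of which 88 were tested. None was a DEG with edgeR. At an unadjusted *p* under 0.05, 20 were higher and 1 was lower, where 4.91% and 4.68% of all genes tested were. DESeq2 called 3 of the 106 genes (*Cxcl15* and *Trem1* higher, *Chil3* lower). Over all genes it called 274 of the 16150 with an adjusted *p*, and 0.817% of the 16150 were called higher. Among these 9 lists, the surface molecules and the granule proteins of mature neutrophils had the medians furthest from 0. Of 22 surface receptors and adhesion molecules tested, 21 had a log2FC above 0, as had 50.9% of all genes tested, with a median of 0.70, and 9 were higher and 0 lower at an unadjusted *p* under 0.05, where 4.91% of all genes tested were higher. Without GRdim/dim replicate 1, 19 of the 22 were above 0, the median was 0.31 and 2 were higher at that *p*, while without each of the other 5 libraries the median was 0.49 to 0.84 and 4 to 12 were higher. *Cxcr4*, the marrow homing receptor and one of the most abundant of them, was at 73.6 ± 16.3 CPM in GRdim/dim lungs against 68.1 ± 12.4 CPM in GR+/+ lungs. *Trem1*, an amplifier of myeloid inflammation chosen here for its DESeq2 call, was at 5.56, 3.78 and 3.84 CPM in GR+/+ and at 9.06, 9.97 and 8.72 CPM in GRdim/dim replicates, with a log2FC of 1.08 (adjusted *p* = 0.224 from edgeR and 0.0285 from DESeq2). The DESeq2 call ended without GR+/+ replicate 2 (adjusted *p* = 0.235), GR+/+ replicate 3 (0.192), GRdim/dim replicate 1 (0.127) or GRdim/dim replicate 2 (0.197). Unlike the alarmins, *Trem1* was at a similar level in all 3 GRdim/dim lungs.

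The defining surface marker of mouse neutrophils, *Ly6g*, was too low to be tested with edgeR. It had 6, 9 and 13 counts in GR+/+ and 56, 9 and 13 counts in GRdim/dim replicates 1, 2 and 3. In CPM this was 0.359, 0.540 and 0.413 against 3.02, 0.374 and 0.840. DESeq2 gave a log2FC of 1.69 (adjusted *p* = 0.415). *Ly6g* was singled out after its values had been seen. In CPM it too was highest in GRdim/dim replicate 1, next highest in GRdim/dim replicate 3, and in GRdim/dim replicate 2 within the GR+/+ range.

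Of 18 other granule and cytosolic genes tested, 7 were higher and 1 lower at an unadjusted *p* under 0.05, with a median log2FC of 0.59. Over all genes tested, 4.91% were higher and 4.68% lower at that *p*. Without GRdim/dim replicate 1, 3 of the 18 were higher and 1 lower, and their median was 0.28. The most abundant were *Hp*, haptoglobin, with 503 ± 138 CPM in GRdim/dim lungs against 622 ± 153 CPM in GR+/+ lungs, and *Anxa1*, annexin A1, with 417 ± 95.1 and 375 ± 59.9 CPM. *Chil3*, a chitinase-like protein of neutrophil precursors and alveolar macrophages and the lower gene of this list, was at 244, 250 and 264 CPM in GR+/+ and at 161, 156 and 95.6 CPM in GRdim/dim replicates. Every GRdim/dim lung was below every GR+/+ lung, and the log2FC was -0.88 ± 0.21 (SE, edgeR adjusted *p* = 0.202 and 0.0171 from DESeq2). The DESeq2 call ended without any one GR+/+ library (adjusted *p* of 0.0920 to 0.105) and held without any one GRdim/dim library. Of 7 primary granule genes only *Prtn3*, proteinase 3, could be tested, at 1.11 ± 0.450 CPM in GRdim/dim lungs against 0.913 ± 0.134 CPM in GR+/+ lungs. *Cst7*, the other leading gene of that list, was at 0.726 ± 0.236 and 0.499 ± 0.0701 CPM. The summed level of these 7 genes was 1.56 to 1.67 CPM in GR+/+ and 2.20 to 2.97 CPM in GRdim/dim lungs.

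Of 9 growth factor and chemoattractant genes tested, 2 were higher and 0 lower at an unadjusted *p* under 0.05, where 4.91% and 4.68% of all genes tested were. The median log2FC of the 9 was 0.39 (0.23 without GRdim/dim replicate 1, with 2 still higher). The most abundant, *Cxcl15* or lungkine, a neutrophil attractant of the lung epithelium, was at 516, 399 and 589 CPM in GR+/+ and at 1260, 1320 and 898 CPM in GRdim/dim replicates 1, 2 and 3. All GRdim/dim lungs were above all GR+/+ lungs, and GRdim/dim replicate 1 did not stand out. The log2FC was 1.21 ± 0.23 (SE, edgeR adjusted *p* = 0.0961 and 5.67e-05 from DESeq2). *Cxcl12*, the marrow retention factor, was at 95.6 ± 43.0 CPM in GRdim/dim lungs against 106 ± 36.8 CPM in GR+/+ lungs, and *Csf3*, which encodes the ligand of the *Csf3r* receptor, had 0 to 6 counts per library.

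Where 4.91% of all genes tested were higher at an unadjusted *p* under 0.05, 1 of the 8 transcription factor genes of granulopoiesis tested was. This was *Cebpd*, a C/EBP factor of late granule genes, at 364, 298 and 274 CPM in GR+/+ and at 284, 705 and 778 CPM in GRdim/dim replicates 1, 2 and 3 (log2FC 0.92 ± 0.33, edgeR adjusted *p* = 0.417). Here GRdim/dim replicates 2 and 3 were high, and replicate 1, the lung with the highest alarmin levels, was within the GR+/+ range. Without that lung the log2FC was 1.26 (adjusted *p* = 0.0886) in edgeR and 1.24 in DESeq2, which then called *Cebpd* higher (adjusted *p* = 1.41e-05). *Stat3*, which signals below the G-CSF receptor, was at 446 ± 51.8 CPM in GRdim/dim lungs against 356 ± 36.2 CPM in GR+/+ lungs.

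The lists of partners and relatives had median log2FC values from -0.24 to 0.34. Receptors and partners of the 10 proteins were led by *Ager* (2020 ± 470 CPM in GRdim/dim lungs against 2118 ± 620 CPM in GR+/+ lungs) and *Cd36* (1027 ± 396 and 915.6 ± 88.2 CPM). Their median log2FC was -0.09 over 10 genes, with 1 higher at an unadjusted *p* under 0.05, where 4.91% of all genes tested were. The inhibitors of metalloproteinases, led by *Timp3* (559 ± 310 and 823 ± 375 CPM) and *Timp2* (624 ± 35.2 and 750.1 ± 165 CPM), had a median of -0.24 over 5 genes with 0 past that threshold. The other S100 and alarmin genes, led by *S100a6* (266.5 ± 116 and 263 ± 105 CPM) and *S100a11* (273 ± 10.9 and 234.5 ± 50.6 CPM), had a median of 0.02 over 13 genes, again with 0. The resistin family genes *Retnla* and *Retn* had a median of 0.34, with *Retn* at 2.89 ± 2.11 and 1.80 ± 1.18 CPM.

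**Figure D5:**
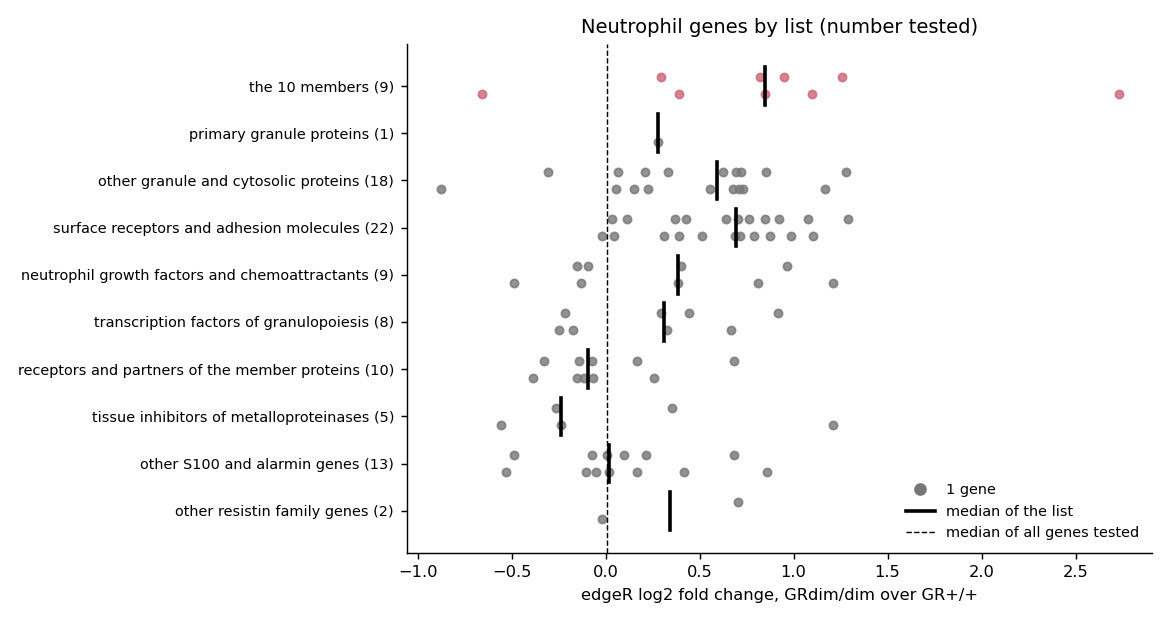
edgeR log2FC, GRdim/dim over GR+/+, of every gene tested in the 10 genes described and in 9 lists of related genes, with 1 point per gene, a bar at the median of each list and a dashed line at the median of all genes tested (0.01). The medians of the 10 genes (0.85), the surface receptors (0.70) and the other granule genes (0.59) lie furthest to the right of the lists plotted, and none of these points was a DEG.

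Markers of the other blood and lung cells that a piece of lung holds were measured beside these genes. Summed levels of 7 monocyte markers, cells that also express *S100a8*, *S100a9* and *Csf3r*, were 233 to 379 CPM in GR+/+ and 288 to 482 CPM in GRdim/dim lungs, with the highest in GRdim/dim replicate 1. At an unadjusted *p* under 0.05 from edgeR, 3 of these 7 were higher and 0 lower, where 4.91% and 4.68% of all genes tested were. Without GRdim/dim replicate 1, 0 of the 7 were higher and 1 was lower at that *p*. Summed levels of markers of B cells (82.3 to 167.5 CPM in GR+/+ and 198 to 708 CPM in GRdim/dim lungs, 6 genes), of T cells and NK cells (12.0 to 30.9 and 35.3 to 46.4 CPM, 8 genes) and of platelets (13.4 to 19.7 and 21.9 to 35.1 CPM, 6 genes, with *Gp1bb* at 0 in all 6 libraries) did not overlap between genotypes. Taken singly, every GRdim/dim lung was above every GR+/+ lung for 3 of 6 B cell genes tested. The same held for 3 of 8 T and NK cell genes and 1 of 5 platelet genes (*Pf4*), as for 7.77% of all genes tested. *Igkc* alone was at 33.5 to 60.5 CPM in GR+/+ and 74.2 to 277 CPM in GRdim/dim lungs, a large part of the B cell sum. The median log2FC was 1.16 for the B cell list and 1.17 for the T cell and NK cell list, both further from 0 than that of the 10 genes, 0.41 for platelets and 0.18 for monocytes, and that of the airway list was -1.08. Alveolar macrophage markers (309 to 420 and 367 to 510 CPM, 8 genes), endothelial markers (1922 to 2845 and 2402 to 2532 CPM, 5 genes), fibroblast markers (719 to 1818 and 1240 to 1667 CPM, 5 genes) and erythroid markers (1110 to 4154 and 1728 to 4375 CPM, 7 genes) overlapped. The largest part of the alveolar macrophage sum was *Car4* (151 to 250 and 225 to 360 CPM, log2FC 0.72), so that sum says little about the other genes of the list. The median log2FC of that list was -0.02. Eosinophil and basophil markers summed to 0.600 to 1.20 CPM in GR+/+ and 1.94 to 2.20 CPM in GRdim/dim lungs over 6 genes. Proliferation genes summed to 226 to 244 CPM in GR+/+ and 290 to 321 CPM in GRdim/dim lungs over 6 genes. Of these 78 genes 70 were tested, and none was a DEG with edgeR. At an unadjusted *p* under 0.05, 20 were higher and 5 lower, where 4.91% and 4.68% of all genes tested were. DESeq2 called 5 of the 78 genes, with *Pf4*, *Igkc* and *Cldn5* higher and *Scgb3a1* and *Muc5b* lower. Over all genes it called 274 of the 16150 with an adjusted *p*, and 0.817% of the 16150 were called higher. The part of these cells in the results above was not tested.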

How the data were processed

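Poly(A)-captured RNA of 6 lungs was sequenced by a commercial provider, 1 library per mouse. The authors deposited raw counts of reads per gene, without normalization or pooling, and the gene length. The submitters' processing notes name the mm10 build and DESeq2, while aligner, counting tool, annotation and use of strand are not given in the sources used here. Coordinates are those of the deposited counts, and 53462 of 54532 genes have the same coordinates in GENCODE M21 (GRCm38). Between lungs of one genotype, chi-square per degree of freedom over genes was 20.9 to 70.1, far beyond sampling noise, and *p*-values measure the spread between these mice.

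Counts were tested with edgeR 4.0.16 in R 4.3.3 (filterByExpr, TMM scaling, robust glmQLFit, glmQLFTest) and Benjamini-Hochberg adjustment over all 16568 genes tested. The SE given with an edgeR log2FC was derived from the test, as the absolute log2FC divided by the square root of its F statistic. Alternatives were DESeq2 1.42.0, RLE scaling, no filter, at least 10 counts in every library, the replicate number as a block, a sex-linked covariate, no fold threshold and each library left out. DESeq2 with each library left out and the ratios of single granule genes were added after the data had been seen. Log2 CPM used a prior count of 2. Exact permutation tests enumerated the 20 assignments of 6 libraries to 3 and 3. Shared sequence was the share of transcript windows of 31 bases found in other genes. The procedure was tested on simulated data.

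The members and the lists were chosen with earlier results of these data known. Genes named were the 10 members, the 2 most abundant genes and any DEG of each other neutrophil list, and the 8 genes closest in pattern. Most others named are said to be chosen after their values were seen, or were called by DESeq2. *Csf3*, *Hbb-bs*, *Hbb-bt*, *Scgb1a1*, *Car4* and *Gp1bb* fall outside these rules and describe a list or a gene named beside them. Cell type marker lists were given mainly by their summed levels and DESeq2 calls. A gene that this rule names is not reported here.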

Additional observations from a re-analysis of the deposited data

How the results depend on the processing

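Over all genes tested, 28 DEGs became 522 without a filter on low counts and 274 with DESeq2, and were 4 to 384 with 1 library left out (4 to 22 with edgeR). The 0 DEGs among the 10 genes became 5 without a filter (*S100a9*, *Ngp*, *Camp*, *Lcn2* and *Retnlg*, all higher) and 3 with DESeq2. They were 0 to 4 with 1 library left out (0 to 1 with edgeR). The 0 among the other neutrophil genes became 7 without a filter, 3 with DESeq2 and 0 to 6 with 1 library left out (0 with edgeR). The 0 among cell type markers became 13 without a filter, 5 with DESeq2 and 0 to 7 with 1 library left out (0 to 2 with edgeR). The cause of the gain without a filter was not tested. Signs turned for *Csf3r* (-0.064 to 0.73 with 1 library left out) and *Mmp8* (-0.63 to 1.04 with 1 library left out, -0.11 with the sex-linked covariate). The log2 ratio of granule to alarmin counts (-1.55 to -0.52 with 1 library left out) was 1.64 with *Ngp* alone. Sexes were unbalanced between genotypes, and with a sex-linked covariate the log2FC went to 0.58 for *S100a8*, 0.52 for *S100a9* and 0.38 for *Mmp9*. RLE scaling and at least 10 counts in every library changed no count of DEGs by over 1.5 times.

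Replicates share numbers across genotypes, but nothing says that a number marks a shared litter or day. Deviations of same-numbered libraries had correlations of 0.22, 0.04 and -0.05, so they were not treated as pairs. With the replicate number as a block, 34 genes were DEGs over all genes tested, 0 of the 10 genes and 2 of the cell type markers.

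With 3 mice per genotype, the spread between mice limits the genes with many counts, and counting error adds to it for *Ngp* and *Camp*. Whether mutant and control lungs differ without HS cannot be seen in these libraries.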
